A study of Mus musculus with 8 samples.

Results

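The 50 genes described here act in the G2 phase and mitosis and were followed through 4 groups of ASZ001 cells, a line derived from a mouse basal cell carcinoma. They were chosen by symbol, and all 50 were found among 24907 gene symbols and were among the 12538 genes with enough counts to be tested. Cells had been given a non-silencing shRNA (NS cells, genotype labelled control) or one directed at Tgfbr1, which encodes a receptor kinase for transforming growth factor beta (knockdown cells, labelled TGFbR1kd). Both kinds of cell received either DMSO or Dox/4OHT (written Dox-4OHT), and the genotype of the Dox-4OHT libraries is labelled RasV12 with the NS shRNA and TGFbR1kd_RasV12 with the Tgfbr1 shRNA. RNA was sequenced from 2 libraries in each of the 4 groups, 8 in all. No group had Dox-4OHT without the RasV12 label, so what the agents do and what Ras does cannot be told apart, and "Ras response" here stands for Dox-4OHT against DMSO. The labels name 1 cell line and do not tell if a group's 2 libraries stem from different cultures, so the p-values cover just the spread among these 8 libraries, and this may be technical. The number of shRNA sequences or clones, the doses and the times are not stated in the labels.

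Cells enter mitosis when Cdk1, bound to cyclin B and switched on by Cdc25 phosphatases, phosphorylates its targets. Polo and Aurora kinases then build the spindle, the kinetochores attach chromosomes to it, the spindle checkpoint holds the anaphase-promoting complex (APC/C) until all are attached, and the APC/C with Cdc20 destroys cyclin B and securin so that sister chromatids part. Most of these genes are transcribed late in the cell cycle: the DREAM complex represses them in resting cells through a promoter element called the CHR (cell cycle genes homology region), and the MuvB core of that complex with B-Myb (Mybl2) and FoxM1 activates them later, often beside CCAAT boxes bound by NF-Y.

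Promoters are shown because the 50 genes mostly moved together in 4 of the 5 comparisons below, which share libraries and so are not independent. These 6 include genes with both elements described here, with CCAAT boxes alone and with neither. A CHR without a CCAAT box, as found in Ndc80, Kif20b, Kif2c and Anln, is not among them. Each is 130 bases before to 30 bases from the start of the gene, 5′ to 3′ on the gene's strand, from RefSeq's annotation of GRCm38.p6, and capitals mark every CHR (TTTGAA or TTCGAA) and every CCAAT box (CCAAT), read on both strands (the reverse of TTTGAA is TTCAAA and that of CCAAT is ATTGG). The windows lie at chr9:70421525-70421684, minus strand, chr10:69352883-69353042, minus strand, chr4:118437314-118437473, minus strand, chr11:99024160-99024319, minus strand, chr13:100786457-100786616, minus strand and chr2:163054505-163054664, plus strand.
Ccnb2: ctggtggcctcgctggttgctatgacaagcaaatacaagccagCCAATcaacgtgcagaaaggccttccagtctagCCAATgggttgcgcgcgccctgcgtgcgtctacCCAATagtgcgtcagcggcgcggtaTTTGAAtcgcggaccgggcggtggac
Cdk1: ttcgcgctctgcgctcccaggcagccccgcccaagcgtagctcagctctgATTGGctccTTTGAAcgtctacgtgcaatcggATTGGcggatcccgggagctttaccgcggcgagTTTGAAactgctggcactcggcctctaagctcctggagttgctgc
Cdc20: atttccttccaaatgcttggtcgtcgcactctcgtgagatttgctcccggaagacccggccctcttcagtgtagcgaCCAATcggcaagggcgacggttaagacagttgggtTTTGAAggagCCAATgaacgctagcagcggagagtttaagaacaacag
Top2a: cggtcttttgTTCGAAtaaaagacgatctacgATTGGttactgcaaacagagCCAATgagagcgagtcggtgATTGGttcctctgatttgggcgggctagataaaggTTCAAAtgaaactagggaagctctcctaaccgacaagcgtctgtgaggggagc
Ccnb1: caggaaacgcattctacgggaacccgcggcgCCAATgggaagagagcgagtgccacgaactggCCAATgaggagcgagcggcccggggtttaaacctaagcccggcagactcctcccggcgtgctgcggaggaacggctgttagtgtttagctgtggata
Mybl2: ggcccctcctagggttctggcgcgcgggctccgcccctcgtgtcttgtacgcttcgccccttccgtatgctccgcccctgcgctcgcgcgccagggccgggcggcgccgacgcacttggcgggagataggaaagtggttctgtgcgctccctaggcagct

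Ccnb2 held 3 CCAAT boxes, which begin at positions -87, -54 and -21 from the start, and a CHR at 5. Cdk1 had CCAAT boxes at -80 and -48 and a CHR at -71 and at -15. In Cdc20 the CHR began at -18, between CCAAT boxes at -53 and -8. Top2a had CCAAT boxes at -98, -78 and -58 and a CHR at -120 and at -23. Ccnb1 had CCAAT boxes at -99 and -67 but no match to the CHR letters in the window, and Mybl2 had neither.

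RefSeq's table held 44 promoters of 41 of the 50 genes, each from 250 bases before to 50 after the start. The CHR was in the promoters of 32 of the 41 genes (78.0%), against 21.7% of all 27025 genes in the table, and the CCAAT box was in 30 (73.2%), against 41.1%. Both were in 28 (68.3%), against 8.61%. In 30 of the 41 a CHR lay within 50 bases of the start, as it did in 6.12% of all genes. An E2F core (TTTCCCGC, TTTGGCGC, TTTCGCGC, TTTGCCGC or TTTCCCGG, either strand) was in 3 of the 41 (7.32%), against 3.99% of all genes. Among the 9711 genes of the table that were tested here, as all 41 were, the shares were 16.2% (CHR), 43.3% (CCAAT box), 6.95% (both) and 7.13% (E2F core), so the share with an E2F core lay next to that of tested genes. Matches of 2 different motifs shared bases 1 time in these promoters. The 9 genes whose window had no CHR were Ccnb1, Mybl2, Nusap1, Birc5, Mad2l1, Cenpe, Nuf2, Pttg1 and Ncaph. The 9 genes not matched in the table were Kif20a, Cdc25c, Foxm1, Smc4, Aurkb, Spc24, Ccna2, Tpx2 and Incenp. A match describes letters in a window and does not show that a factor binds there. The map of motif positions shows the CHR matches gathered next to the start and the CCAAT boxes before them.

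**Figure D1:**
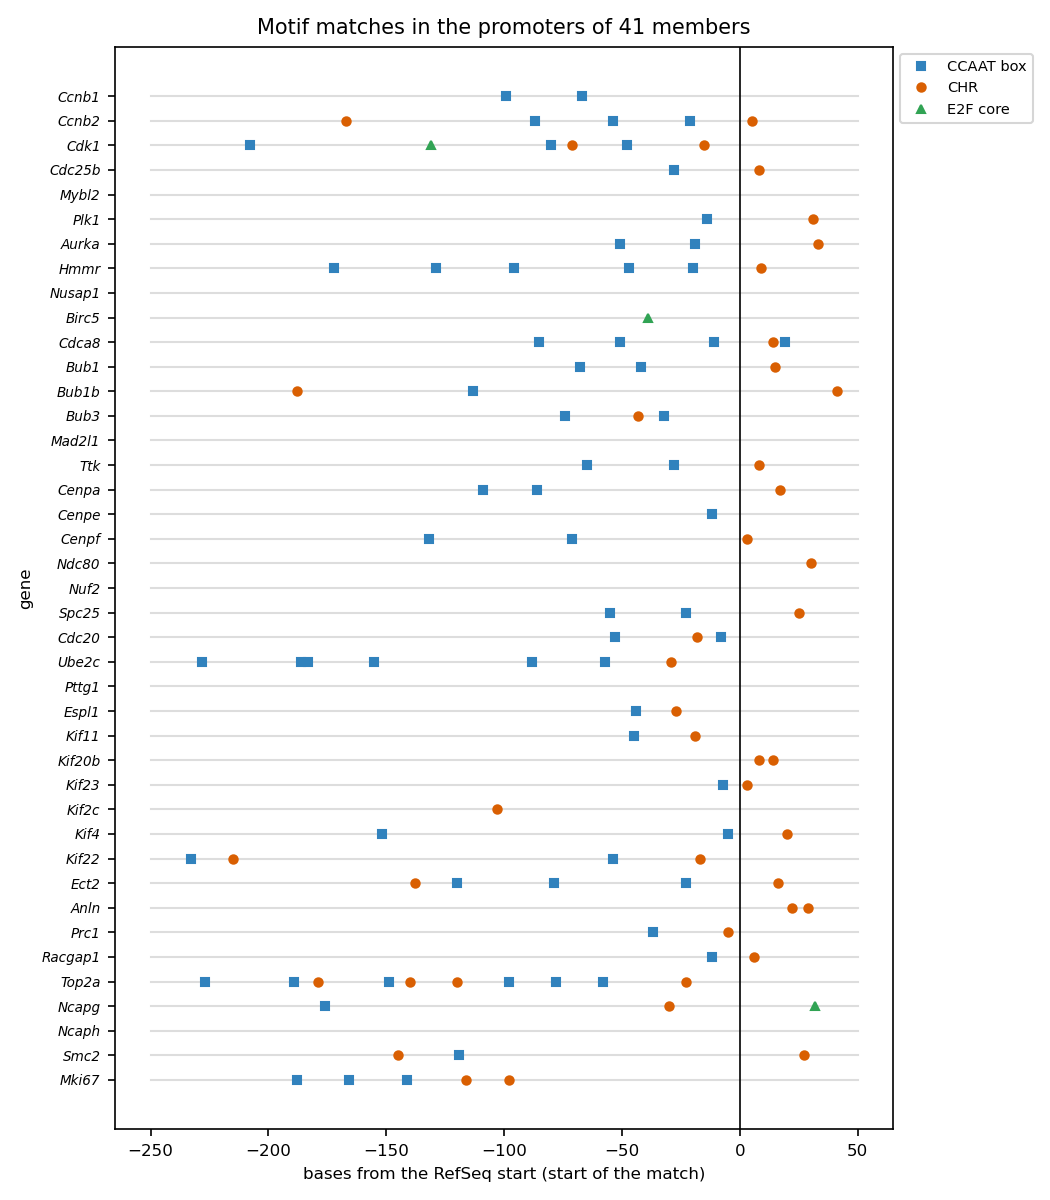
Positions of CHR, CCAAT box and E2F core matches in the promoters of the 41 genes found in RefSeq's table, in bases from the start of the gene (x axis), 1 line per gene. In 30 of the 41 genes a CHR lies within 50 bases of the start.

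Library totals ranged from 12724325.5 to 16233011 counts, and the lowest total over the 8 libraries for any of the 50 genes was 3072 counts. Levels are given as CPM, counts per 1000000 after scaling between libraries. Tgfbr1 was at 77.1 to 104 CPM in the 4 NS libraries and 8.08 to 10.2 CPM in the 4 knockdown libraries, a log2 difference of -3.11 ± 0.09 under DMSO and -3.43 ± 0.09 under Dox-4OHT, in the direction of the labels. All 8 keratinocyte markers looked at (Krt5, Krt14, Krt15, Trp63, Itga6, Itgb4, Cdh1 and Epcam) were present in every group. In NS cells their summed level was 25082 and 25448 CPM with DMSO and 12495 and 12717 CPM with Dox-4OHT. The knockdown libraries had 15948 and 16706 CPM with DMSO and 12028 and 12504 CPM with Dox-4OHT, so the sum was lower with Dox-4OHT under both shRNAs. Krt5 (5520 to 13279 CPM) and Krt14 (2963 to 8662 CPM) weighed most in this sum, and the next highest, Itgb4, was at 1344 to 1999 CPM. The sum therefore does not show how each marker changed. Col3a1 and Lum (fibroblasts), Cd3e (T cells) and Tyr and Dct (melanocytes) were at 0 in all 8 libraries, while Cd68 (macrophages), Pmel (melanocytes), Dcn and Pdgfra (fibroblasts) were detected. The summed level of the immune list was 4.51 to 9.02 CPM in 3 of the groups, and the knockdown libraries under Dox-4OHT had 15.0 and 15.5 CPM. For the other lists it was 1.11 to 4.39 CPM (6 fibroblast markers), 3.37 to 6.25 CPM (4 melanocyte markers) and 22.5 to 37.0 CPM (3 endothelial markers). Single genes made up nearly all of the immune, melanocyte and endothelial sums. Cd68 alone was at 4.51 to 15.5 CPM, Pmel at 3.37 to 6.25 CPM and Pecam1 at 22.4 to 37.0 CPM. Over the 8 libraries Ptprc had 5.5 counts, Itgam 4.5, Cdh5 1.5 and Kdr 1. The part of these levels in the results below was not tested.

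The 50 genes took their largest share of the RNA in NS cells under Dox-4OHT and their smallest in knockdown cells under Dox-4OHT. With DMSO, they together made up 0.834% and 0.854% of counts in NS cells and 0.854% and 0.862% in knockdown cells. With Dox-4OHT, their share was 1.05% in both NS libraries and 0.754% and 0.759% in the knockdown libraries. The 2 groups under DMSO overlapped in this share, and the 2 groups under Dox-4OHT lay apart from them on either side. Gene by gene, the highest group mean was that of NS cells under Dox-4OHT for 45 of the 50, and the lowest that of knockdown cells under Dox-4OHT for 33. How many of all genes tested had their highest or lowest mean in these groups was not counted. Both NS libraries under Dox-4OHT were above the other 6 libraries in 42 genes (12.4% of all genes tested showed this order), the 8 others being Ccnb2, Mybl2, Cenpf, Spc24, Spc25, Espl1, Kif20b and Kif23. RNA came from whole cultures, so a larger share of cells in G2 or mitosis and more of these RNAs per cell cannot be told apart. The heat map of the 50 genes by library shows this order.

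**Figure D2:**
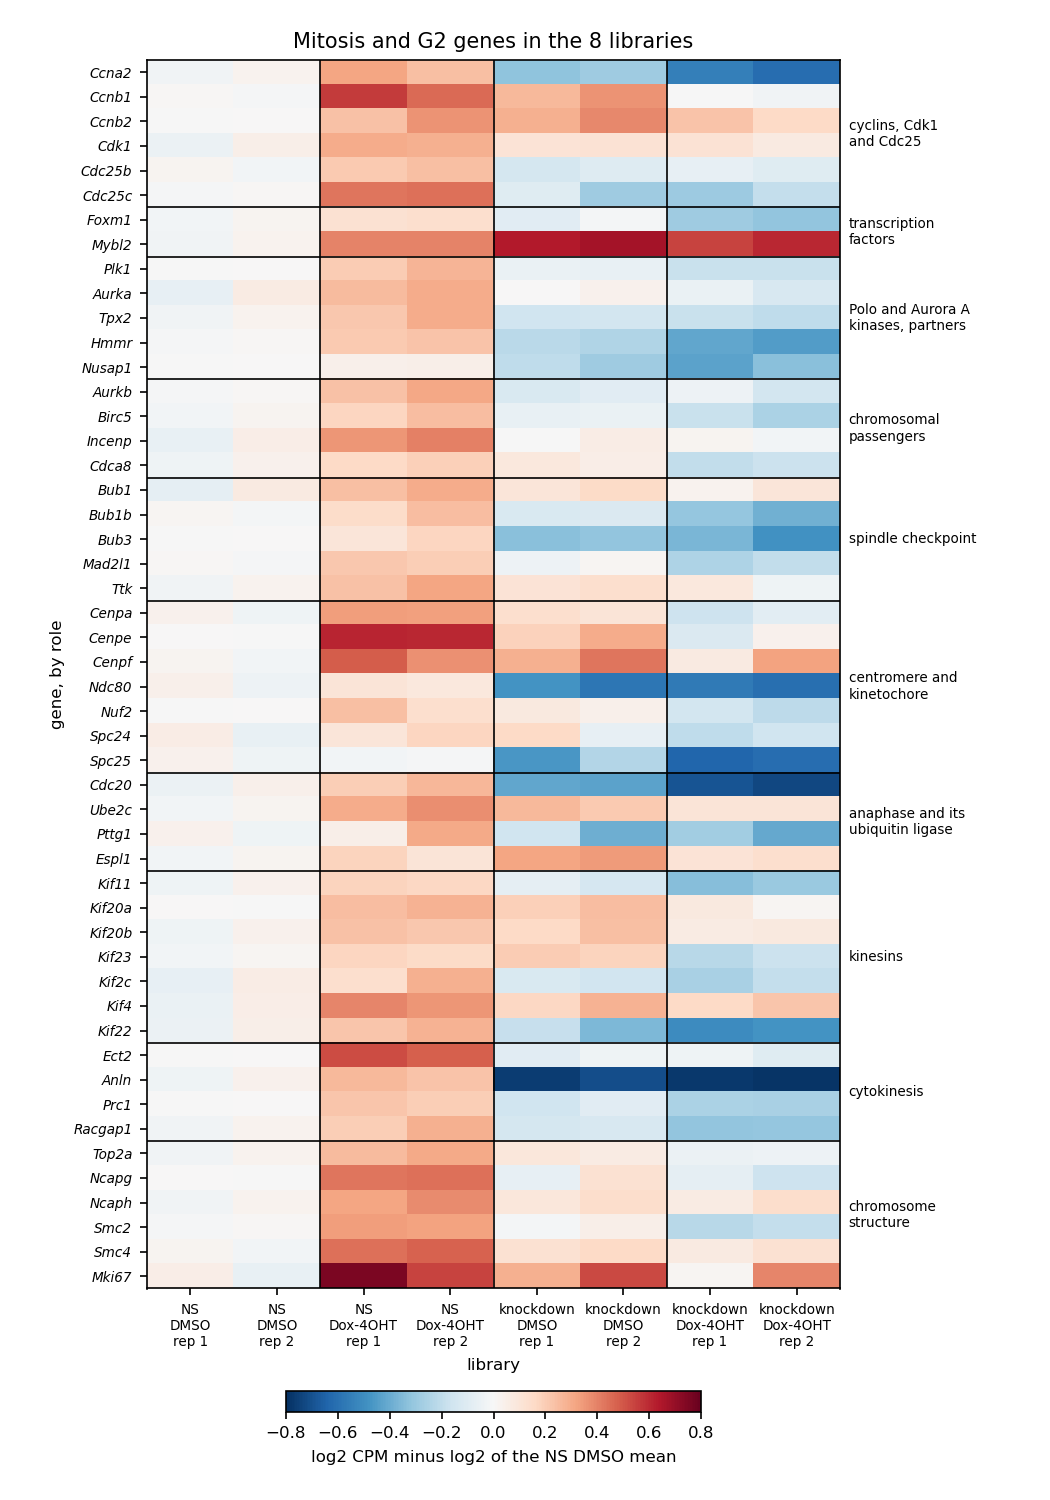
Level of each of the 50 genes (y axis, ordered by role) in each of the 8 libraries (x axis), as log2 CPM minus the log2 of the mean of the 2 NS libraries under DMSO. The 2 NS libraries under Dox-4OHT are above all others in 42 genes.

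In NS cells Dox-4OHT raised most of the 50 genes by a modest amount. By the quasi-likelihood test of edgeR (p adjusted over the 12538 genes by Benjamini-Hochberg, threshold 0.05), 45 of the 50 were higher and 0 lower (42 and 0 by DESeq2, and 46 and 0 by edgeR at an unadjusted p under 0.05), against 20.8% of all genes tested called higher and 21.3% called lower. The median log2 change was 0.25 (1.19-fold), against a median of 0.00 over all genes tested. Values in parentheses after a gene are log2 changes, here and below, ± a standard error derived from the F value of the test. The largest rises were those of Mki67 (0.65 ± 0.18), Cenpe (0.61 ± 0.05), Ccnb1 (0.51 ± 0.05) and Ect2 (0.50 ± 0.04). The 5 that did not pass were Nusap1 (0.04 ± 0.05, adjusted p = 0.478), Ndc80 (0.09 ± 0.05, adjusted p = 0.169), Spc24 (0.13 ± 0.08, adjusted p = 0.208), Spc25 (-0.02 ± 0.07, adjusted p = 0.881) and Pttg1 (0.18 ± 0.08, adjusted p = 0.0882). Among them Ndc80, Spc24 and Spc25 are subunits of the 4-protein Ndc80 complex that grips spindle microtubules. Its other subunit, Nuf2, was called higher (0.19 ± 0.05, adjusted p = 0.00302), so the complex did not behave as 1 unit in these calls. The libraries of the 2 groups did not overlap in 49 of the 50, against 70.2% of all genes tested. Without any 1 library, between 38 and 45 of the 50 were called higher.

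In knockdown cells the same treatment did not raise any of the 50. At the same threshold 0 were called higher and 29 lower (0 and 19 by DESeq2, and 0 and 31 by edgeR at an unadjusted p under 0.05), against 19.5% and 16.6% of all genes tested, and the median log2 change was -0.14 (0.908-fold; 0.00 over all genes tested). The largest falls were those of Kif23 (-0.39 ± 0.05), Ccnb1 (-0.32 ± 0.06), Cdc20 (-0.29 ± 0.04) and Cenpe (-0.28 ± 0.05). Among the 21 genes that did not pass, only Cdc25b (0.04) and Aurkb (0.02) had a log2 difference above 0. The libraries did not overlap in 37 of the 50, against 67.1% of all genes tested. Without any 1 library, 23 to 30 were called lower.

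The difference between the responses was tested as an interaction, the response of knockdown cells minus that of NS cells. It was below 0 in all 50 genes and passed the test in 46, against 18% of all genes tested called lower and 20.2% called higher. Its median was -0.41 on the log2 scale (0.754-fold; 0.02 over all genes tested), and among the 46 the largest were those of Cenpe (-0.89 ± 0.07, adjusted p = 7.19e-11), Ccnb1 (-0.83 ± 0.08, adjusted p = 3.56e-09), Ncapg (-0.59 ± 0.07, adjusted p = 6.65e-07) and Cenpf (-0.58 ± 0.15, adjusted p = 0.0369). The 4 that did not pass were Mki67 (-0.85 ± 0.25, adjusted p = 0.0633), Spc25 (-0.26 ± 0.11, adjusted p = 0.0575), Pttg1 (-0.25 ± 0.13, adjusted p = 0.134) and Ndc80 (-0.15 ± 0.08, adjusted p = 0.168). In 26 genes the response was a called rise in NS cells and a called fall in knockdown cells. The interaction passed in all 26, but it is the difference of these 2 responses, so this is no separate support. The share of all genes with this pattern was not counted. The plot of the 2 responses against each other places 49 of the 50 genes to the right of 0 and 48 below 0 on the other axis.

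**Figure D3:**
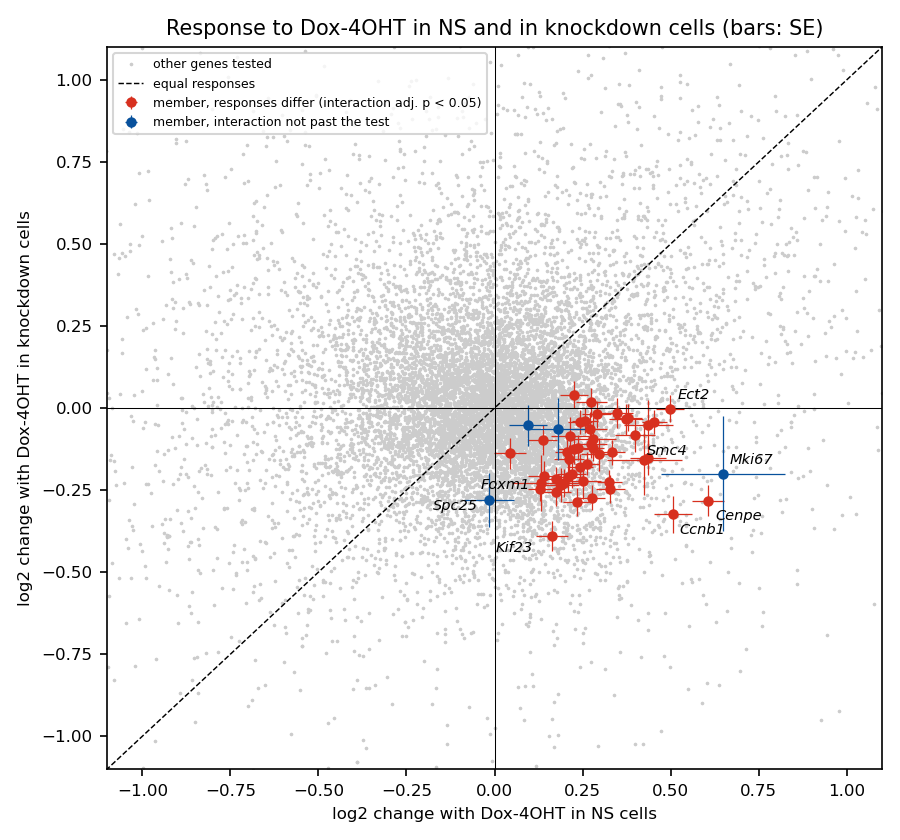
Log2 change of each of the 50 genes with Dox-4OHT in NS cells (x axis) and in knockdown cells (y axis), with bars of 1 standard error and a dashed line of equal response. Grey points are the other genes tested within the axes. Red points passed the test of the difference between the responses (46 genes) and blue points did not (Mki67, Spc25, Pttg1 and Ndc80).

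The genes were divided when the knockdown was compared with NS cells under DMSO. Of the 50, 17 were higher and 19 lower in knockdown cells, against 30.9% and 31% of all genes tested, so the share called was near the background, and the median log2 difference was 0.02 (1.01-fold; 0.00 over all genes tested). Mybl2 (0.65 ± 0.05), Cenpf (0.36 ± 0.11), Ccnb2 (0.33 ± 0.05) and Espl1 (0.33 ± 0.05) were the most raised among those past the test, and Anln (-0.73 ± 0.04), Ndc80 (-0.53 ± 0.06), Cdc20 (-0.42 ± 0.04) and Spc25 (-0.34 ± 0.07) the most lowered. Mki67 had a difference of 0.41 ± 0.18 (adjusted p = 0.114) and did not pass. The sign of the median turned with 1 library left out, to -0.0034 without NS DMSO replicate 1 and -0.022 without knockdown DMSO replicate 2. The libraries did not overlap in 43 of the 50, against 81.2% of all genes tested.

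Under Dox-4OHT nearly all were lower in knockdown cells. Here 45 were lower and 1 higher, against 29.7% and 30.5% of all genes tested, and the median log2 difference was -0.43 (0.744-fold; -0.01 over all genes tested). The largest falls were in Anln (-1.02 ± 0.04), Cdc20 (-0.94 ± 0.04), Ccna2 (-0.85 ± 0.04) and Kif22 (-0.74 ± 0.05), and the 1 higher gene was Mybl2 (0.17 ± 0.05, adjusted p = 0.00705), whose call was lost by DESeq2 (adjusted p = 0.0588) and without knockdown Dox-4OHT replicate 2 (adjusted p = 0.0757). Ccnb2 (-0.10 ± 0.05, adjusted p = 0.0814), Cenpf (-0.22 ± 0.11, adjusted p = 0.133), Espl1 (-0.02 ± 0.05, adjusted p = 0.735) and Mki67 (-0.44 ± 0.18, adjusted p = 0.0979) did not pass. Of the 17 genes raised by the knockdown under DMSO, 13 were lowered by it under Dox-4OHT, and all 19 that were lower under DMSO were also lower under Dox-4OHT. Since 45 of the 50 were lower under Dox-4OHT, these counts are no separate result. Shares of all genes tested with these patterns were not counted. Libraries did not overlap in 49 of the 50, against 78.7% of all genes tested.

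Among the cyclins, Cdk1 and the Cdc25 phosphatases, all 6 genes rose with Dox-4OHT in NS cells, 3 of 6 fell in knockdown cells, and all 6 differed between the responses. Ccnb1 stood at 60.3 and 59.7 CPM with DMSO and 88.4 and 82.2 CPM with Dox-4OHT in the NS libraries, and at 71.8 and 76.9 CPM with DMSO and 59.9 and 58.9 CPM with Dox-4OHT in the knockdown libraries. This gene, cyclin B1, the main partner of Cdk1, was lowest in NS cells under DMSO and knockdown cells under Dox-4OHT, which overlapped each other, and both NS libraries under Dox-4OHT were above all others. Its log2 change was 0.51 ± 0.05 (adjusted p = 1.75e-08) in NS cells and -0.32 ± 0.06 (adjusted p = 4.27e-05) in knockdown cells. Ccnb2 stood at 84.6 and 85.1 CPM with DMSO and 99.7 and 109 CPM with Dox-4OHT in the NS libraries, and at 103 and 111 CPM with DMSO and 99.2 and 94.7 CPM with Dox-4OHT in the knockdown libraries. For cyclin B2, which guides Cdk1 to the Golgi, NS cells under Dox-4OHT overlapped knockdown cells under DMSO and lay just above those under Dox-4OHT, and NS cells under DMSO were below every other library. The change was log2 0.30 ± 0.05 (adjusted p = 2.94e-05) in NS cells and -0.14 ± 0.05 (adjusted p = 0.0295) in knockdown cells, the latter not passing by DESeq2 (adjusted p = 0.224), without knockdown DMSO replicate 2 (adjusted p = 0.304) or without knockdown Dox-4OHT replicate 2 (adjusted p = 0.206).

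Ccna2 stood at 291 and 304 CPM with DMSO and 369.5 and 351 CPM with Dox-4OHT in the NS libraries, and at 238 and 244 CPM with DMSO and 204 and 195 CPM with Dox-4OHT in the knockdown libraries. Cyclin A2, which serves both S phase and mitotic entry, was separate in all 4 groups, with every knockdown library below every NS library. It rose by log2 0.28 ± 0.04 (adjusted p = 8.19e-07) in NS cells and had a log2 change of -0.27 ± 0.04 (adjusted p = 2.80e-06) in knockdown cells. Cdk1 stood at 139.8 and 149.6 CPM with DMSO and 177 and 176 CPM with Dox-4OHT in the NS libraries, and at 156 and 157 CPM with DMSO and 157 and 152 CPM with Dox-4OHT in the knockdown libraries. The mitotic kinase itself was highest in NS cells under Dox-4OHT, lowest in NS cells under DMSO, and overlapped between the 2 treatments of knockdown cells. Its log2 change was 0.29 ± 0.04 (adjusted p = 2.01e-06) in NS cells and its difference -0.02 ± 0.04 (adjusted p = 0.756) in knockdown cells. Under DMSO it was higher in knockdown cells by log2 0.11 ± 0.04 (adjusted p = 0.0204), which did not pass by DESeq2 (adjusted p = 0.115), without NS DMSO replicate 1 (adjusted p = 0.232) or without knockdown DMSO replicate 2 (adjusted p = 0.0585). The phosphatases Cdc25b and Cdc25c, which activate Cdk1, rose by log2 0.22 and 0.44 in NS cells, and neither passed in knockdown cells (0.04 and -0.05).

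Of the 2 mitotic transcription factors, both rose in NS cells and both differed between the responses. Foxm1 stood at 346 and 357 CPM with DMSO and 383 and 386 CPM with Dox-4OHT in the NS libraries, and at 330.2 and 347 CPM with DMSO and 289 and 282 CPM with Dox-4OHT in the knockdown libraries. FoxM1, the forkhead factor that drives late cell cycle genes, was highest in NS cells under Dox-4OHT and lowest in knockdown cells under Dox-4OHT, while the DMSO groups overlapped. It rose by log2 0.13 ± 0.03 (adjusted p = 0.00373) in NS cells, a call lost without NS DMSO replicate 1 (adjusted p = 0.0699) and with an offset for transcript length (adjusted p = 0.0525), and changed by log2 -0.25 ± 0.04 (adjusted p = 3.20e-06) in knockdown cells. Mybl2 stood at 47.8 and 49.7 CPM with DMSO and 64.1 and 64.3 CPM with Dox-4OHT in the NS libraries, and at 75.8 and 77.3 CPM with DMSO and 70.8 and 74.1 CPM with Dox-4OHT in the knockdown libraries. B-Myb was lowest in NS cells under DMSO, and alone among the 50 it had all 4 knockdown libraries above all 4 NS libraries. Its rise was log2 0.40 ± 0.06 (adjusted p = 1.66e-06) in NS cells, its difference in knockdown cells -0.08 ± 0.05 (adjusted p = 0.24), and the difference between the responses -0.48 ± 0.08 (adjusted p = 1.41e-05).

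Plk1, Aurka and the spindle factors Tpx2, Hmmr and Nusap1 were all lower in knockdown cells under Dox-4OHT, and the 5 differed between the responses. Plk1 stood at 196 and 197 CPM with DMSO and 226 and 237 CPM with Dox-4OHT in the NS libraries, and at 189 and 188 CPM with DMSO and 173 and 174 CPM with Dox-4OHT in the knockdown libraries. Polo-like kinase 1, which acts at centrosomes, kinetochores and the midbody, was separate in all 4 groups. It rose by log2 0.24 ± 0.04 (adjusted p = 9.08e-06) in NS cells, and its change of log2 -0.12 ± 0.04 (adjusted p = 0.0152) in knockdown cells was lost by DESeq2 (adjusted p = 0.155) and without knockdown DMSO replicate 2 (adjusted p = 0.0559), knockdown Dox-4OHT replicate 1 (adjusted p = 0.0827) or replicate 2 (adjusted p = 0.0647). Aurora A (Aurka) and its activator Tpx2 rose by log2 0.28 and 0.26 in NS cells and did not pass in knockdown cells (-0.11 and -0.04). Hmmr, which binds spindle microtubules, rose by log2 0.22 and changed by log2 -0.20 in knockdown cells.

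The chromosomal passenger complex, which corrects faulty attachments, rose as a whole in NS cells, with log2 changes of 0.27 for its kinase Aurkb, 0.21 for survivin (Birc5), 0.38 for the scaffold Incenp and 0.18 for borealin (Cdca8). In knockdown cells Birc5 (-0.16) and Cdca8 (-0.25) fell, while Aurkb (0.02) and Incenp (-0.03) did not pass. All 4 were lower in knockdown cells under Dox-4OHT, by log2 -0.38 (Incenp), -0.42 (Birc5), -0.36 (Aurkb) and -0.36 (Cdca8). The 5 genes of the spindle checkpoint did the same: the kinases Bub1 (0.27) and Ttk (0.28), and Bub1b (0.20), Bub3 (0.14) and Mad2l1 (0.21), which form the complex that restrains Cdc20, all rose in NS cells. In knockdown cells Bub1b (-0.23) and Mad2l1 (-0.21) fell and Bub1 (-0.06), Bub3 (-0.10) and Ttk (-0.09) did not pass.

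The 7 centromere and kinetochore genes were divided, with 4 higher with Dox-4OHT in NS cells and 5 lower with it in knockdown cells. Cenpe stood at 136 and 135 CPM with DMSO and 207 and 206 CPM with Dox-4OHT in the NS libraries, and at 154 and 166 CPM with DMSO and 125 and 139 CPM with Dox-4OHT in the knockdown libraries. CENP-E, the kinesin that carries chromosomes to the spindle equator, was far above all other libraries in NS cells under Dox-4OHT, while knockdown cells under Dox-4OHT overlapped NS cells under DMSO. Its log2 change was 0.61 ± 0.05 (adjusted p = 3.65e-11) in NS cells and -0.28 ± 0.05 (adjusted p = 3.28e-05) in knockdown cells. Cenpf stood at 229.6 and 222 CPM with DMSO and 316 and 291 CPM with Dox-4OHT in the NS libraries, and at 275 and 304 CPM with DMSO and 238 and 283 CPM with Dox-4OHT in the knockdown libraries. Mitosin (Cenpf), a large protein of the outer kinetochore, was lowest in NS cells under DMSO, and the knockdown libraries under DMSO overlapped both groups under Dox-4OHT. The rise of log2 0.43 ± 0.11 (adjusted p = 0.0312) in NS cells was lost when any 1 of the 4 NS libraries was left out (adjusted p = 0.0863 to 0.147), and the interaction of -0.58 was lost without any 1 of these or knockdown DMSO replicate 2 (adjusted p = 0.0801 to 0.125). Its knockdown effect under DMSO, log2 0.36 ± 0.11 (adjusted p = 0.0368), was lost without any 1 of the NS libraries or knockdown DMSO replicate 2 (adjusted p = 0.0652 to 0.149).

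Ndc80 stood at 71.8 and 67.6 CPM with DMSO and 75.0 and 74.0 CPM with Dox-4OHT in the NS libraries, and at 50.1 and 46.7 CPM with DMSO and 47.2 and 46.0 CPM with Dox-4OHT in the knockdown libraries. In Ndc80, which names the complex that binds microtubules, every knockdown library was below every NS library and the treatments lay close together. The knockdown effect was log2 -0.53 ± 0.06 (adjusted p = 8.67e-09) under DMSO and -0.68 ± 0.06 (adjusted p = 9.40e-11) under Dox-4OHT. Spc25 stood at 39.6 and 37.6 CPM with DMSO and 38.1 and 38.3 CPM with Dox-4OHT in the NS libraries, and at 28.0 and 32.8 CPM with DMSO and 24.9 and 25.3 CPM with Dox-4OHT in the knockdown libraries. Its partner Spc25 was likewise lower in all knockdown libraries, by log2 -0.34 ± 0.07 (adjusted p = 2.75e-04) under DMSO and -0.61 ± 0.08 (adjusted p = 1.93e-07) under Dox-4OHT. The other 2 subunits, Nuf2 and Spc24, did not pass under DMSO (0.06 and 0.04) and were lower under Dox-4OHT (-0.37 and -0.32). Cenpa, the histone H3 variant that marks the centromere, rose by log2 0.33 in NS cells and changed by log2 -0.25 in knockdown cells.

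For the anaphase genes, 3 of 4 rose in NS cells and 3 of 4 fell in knockdown cells. Cdc20 stood at 191 and 203 CPM with DMSO and 227 and 238 CPM with Dox-4OHT in the NS libraries, and at 148 and 147 CPM with DMSO and 122 and 119 CPM with Dox-4OHT in the knockdown libraries. Cdc20, the APC/C activator that the checkpoint restrains, was separate in all 4 groups, with every knockdown library below every NS library. It rose by log2 0.24 ± 0.04 (adjusted p = 2.57e-05) in NS cells and changed by log2 -0.29 ± 0.04 (adjusted p = 7.12e-06) in knockdown cells. Espl1 stood at 88.4 and 91.4 CPM with DMSO and 102 and 96.6 CPM with Dox-4OHT in the NS libraries, and at 112 and 114 CPM with DMSO and 96.8 and 98.8 CPM with Dox-4OHT in the knockdown libraries. Separase (Espl1), the protease that cuts cohesin, was lowest in NS cells under DMSO and highest in knockdown cells under DMSO, and the Dox-4OHT groups overlapped. Its rise of log2 0.14 ± 0.05 (adjusted p = 0.0157) in NS cells was lost by DESeq2 (adjusted p = 0.137) and without replicate 1 of either NS group (adjusted p = 0.135 under DMSO and 0.13 under Dox-4OHT). Ube2c, the APC/C's ubiquitin-conjugating enzyme, had the highest level per length of the 50 in NS cells under DMSO (226 CPM per kilobase, against 172 for Top2a, 111 for Cdc20 and 12.8 for Ttk, the lowest). It rose by log2 0.33 in NS cells and changed by log2 -0.13 in knockdown cells, while securin (Pttg1) passed in neither (0.18 and -0.06).

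All 7 kinesins rose in NS cells and 5 fell in knockdown cells. Kif23 stood at 93.2 and 95.6 CPM with DMSO and 106 and 105 CPM with Dox-4OHT in the NS libraries, and at 109 and 107 CPM with DMSO and 80.9 and 83.7 CPM with Dox-4OHT in the knockdown libraries. Kif23, the motor of the centralspindlin complex that marks the division plane, was lowest in both knockdown libraries under Dox-4OHT, and NS cells under Dox-4OHT lay just below the knockdown cells under DMSO. Its fall in knockdown cells was log2 -0.39 ± 0.05 (adjusted p = 1.55e-07), and its rise of log2 0.16 ± 0.05 (adjusted p = 0.00479) in NS cells was lost by DESeq2 (adjusted p = 0.0737) and without NS DMSO replicate 1 (adjusted p = 0.0583). Kif22 stood at 96.8 and 103 CPM with DMSO and 116 and 121 CPM with Dox-4OHT in the NS libraries, and at 87.8 and 77.9 CPM with DMSO and 70.4 and 71.7 CPM with Dox-4OHT in the knockdown libraries. Kif22, which pushes chromosome arms away from the poles, had every knockdown library below every NS library. Under Dox-4OHT the knockdown effect was log2 -0.74 ± 0.05 (adjusted p = 4.68e-12). The spindle motor Kif11 rose by log2 0.17 in NS cells, Kif20a by log2 0.26, Kif20b by log2 0.23, the microtubule depolymerase Kif2c by log2 0.21 and the chromokinesin Kif4 by log2 0.37. In knockdown cells Kif11 (-0.22), Kif20a (-0.17) and Kif20b (-0.13) fell, and Kif2c (-0.09) and Kif4 (-0.03) did not pass.

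The 4 cytokinesis genes rose in NS cells, and all were lower in knockdown cells under Dox-4OHT. Ect2 stood at 157 and 158 CPM with DMSO and 227 and 219 CPM with Dox-4OHT in the NS libraries, and at 148 and 154 CPM with DMSO and 154 and 148 CPM with Dox-4OHT in the knockdown libraries. Ect2, the exchange factor that activates RhoA at the cleavage furrow, was high in NS cells under Dox-4OHT alone, and the 2 treatments of knockdown cells overlapped. Its log2 change was 0.50 ± 0.04 (adjusted p = 4.60e-11) in NS cells and its difference -0.00 ± 0.04 in knockdown cells. Anln stood at 412 and 432 CPM with DMSO and 505 and 494 CPM with Dox-4OHT in the NS libraries, and at 249 and 258 CPM with DMSO and 248 and 245 CPM with Dox-4OHT in the knockdown libraries. Anillin (Anln), the scaffold of the contractile ring, was in every knockdown library far below every NS library. It differed by log2 -0.73 ± 0.04 (adjusted p = 4.22e-16) under DMSO and by log2 -1.02 ± 0.04 (adjusted p = 3.59e-19) under Dox-4OHT. The spindle midzone protein Prc1 and Racgap1, the partner of Kif23, rose by log2 0.21 and 0.24 in NS cells and changed by log2 -0.13 and -0.18 in knockdown cells.

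All 6 genes of mitotic chromosome structure rose in NS cells, with the largest median of the 10 roles, 0.39. Top2a stood at 877 and 908 CPM with DMSO and 1066 and 1102 CPM with Dox-4OHT in the NS libraries, and at 952 and 935 CPM with DMSO and 864 and 869 CPM with Dox-4OHT in the knockdown libraries. Topoisomerase II alpha, which untangles sister chromatids, was highest in NS cells under Dox-4OHT and, of the 50, had the most counts. Its change was log2 0.28 ± 0.03 (adjusted p = 1.79e-08) in NS cells and -0.12 ± 0.03 (adjusted p = 0.00205) in knockdown cells. Ncapg stood at 100.1 and 99.3 CPM with DMSO and 134 and 135 CPM with Dox-4OHT in the NS libraries, and at 95.2 and 109 CPM with DMSO and 94.9 and 88.8 CPM with Dox-4OHT in the knockdown libraries. The condensin subunit Ncapg was high in NS cells under Dox-4OHT alone, while the other 3 groups overlapped or lay next to each other. It rose by log2 0.44 ± 0.05 (adjusted p = 1.28e-07) in NS cells and differed by log2 -0.59 ± 0.07 (adjusted p = 6.65e-07) between the responses. The condensin genes Ncaph, Smc2 and Smc4 rose by log2 0.35, 0.33 and 0.45 in NS cells, and of these Smc2 alone fell in knockdown cells (-0.22, against -0.02 for Ncaph and -0.04 for Smc4).

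Mki67 stood at 343 and 317 CPM with DMSO and 557 and 479 CPM with Dox-4OHT in the NS libraries, and at 402 and 475 CPM with DMSO and 334 and 432 CPM with Dox-4OHT in the knockdown libraries. Ki-67 (Mki67), a coat protein of mitotic chromosomes and a common proliferation marker, had the largest rise in NS cells and also the largest standard error. The knockdown groups overlapped each other and the lower NS library under Dox-4OHT came close to the higher knockdown library under DMSO. Its rise of log2 0.65 ± 0.18 (adjusted p = 0.0474) in NS cells was lost without either NS DMSO library (adjusted p = 0.149 and 0.188), either NS Dox-4OHT library (adjusted p = 0.181 and 0.098) or either knockdown DMSO library (adjusted p = 0.0718 and 0.0714). With 10059 bases Mki67 was the second longest of the 50, after Cenpf (11102), and replicates of a group differed by length over all genes: in the eighth of genes of at least 5762 bases, replicate 1 minus replicate 2 had a median log2 difference of 0.03 and 0.06 in the NS groups and -0.03 and -0.05 in the knockdown groups. With an offset for transcript length, chosen after seeing the data, the interaction of Mki67 was log2 -0.86 (adjusted p = 1.99e-06).

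**Figure D4:**
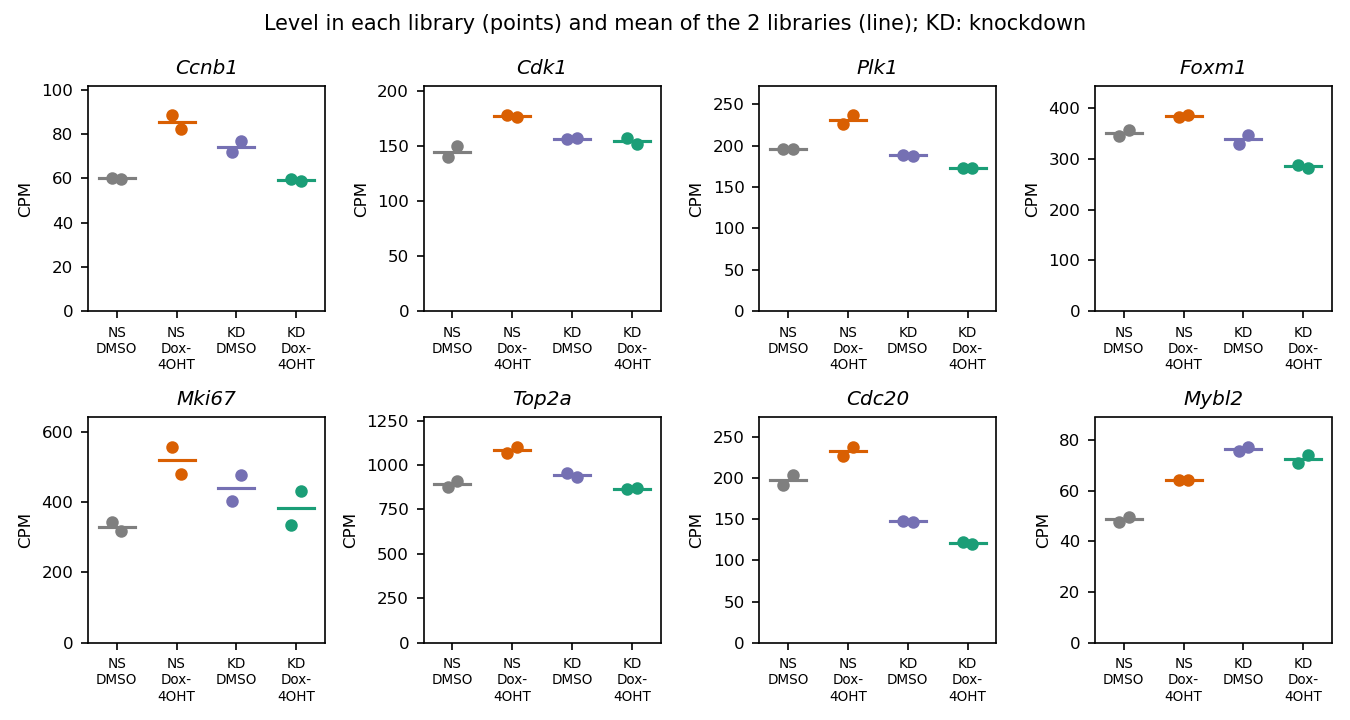
Level in CPM (y axis, each from 0) of Ccnb1, Cdk1, Plk1, Foxm1, Mki67, Top2a, Cdc20 and Mybl2 in each library (points) of the 4 groups (x axis), with the group mean as a line (KD: knockdown cells). NS cells under Dox-4OHT have the highest mean in 7 of the 8, and Mybl2 is highest in knockdown cells under DMSO.

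A further 8 lists of cell cycle genes were counted in the same way, and their counts stand against the shares of all genes tested: 20.8% rose and 21.3% fell in NS cells, 19.5% rose and 16.6% fell in knockdown cells, and 20.2% were above and 18% below 0 past the interaction. Of 38 other mitotic genes, 31 rose and 0 fell in NS cells, 0 rose and 19 fell in knockdown cells, and 34 passed the interaction, all below 0 (median -0.42). Depdc1b (0.61 ± 0.08) and the kinesin Kif18b (0.45 ± 0.04) had the largest rises in NS cells, and Trip13, an ATPase that silences the spindle checkpoint, had the largest interaction (-0.73 ± 0.10, adjusted p = 3.18e-06). Of 32 other kinetochore genes, 16 rose in NS cells, 11 fell and 1 rose in knockdown cells, and 22 passed the interaction, all below 0. The cohesin protector Sgo2a (0.50 ± 0.06) and Ska1 (0.45 ± 0.10), of the complex that holds kinetochores on microtubules, led the rises, and Zwint stood apart, being higher in knockdown cells by log2 1.08 ± 0.06 under DMSO and 1.08 ± 0.06 under Dox-4OHT.

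Of 15 APC/C subunits and regulators, 6 rose and 2 fell in NS cells, 1 rose and 3 fell in knockdown cells, and 6 were below and 1 above 0 among those past the interaction (median -0.16). The 3 of 15 that fell in knockdown cells are close to the share of all genes. Anapc2, its cullin subunit, was the 1 above 0 (0.34 ± 0.06, adjusted p = 1.44e-04), and Fbxo5, the APC/C inhibitor Emi1, the lowest (-0.54 ± 0.10, adjusted p = 1.09e-04). Of 13 cohesin genes, 8 rose in NS cells, 5 fell in knockdown cells and 7 passed the interaction below 0, with Pds5b the lowest (-0.67 ± 0.07, adjusted p = 3.91e-08).

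Of 39 DNA replication and S phase genes, 24 rose and 2 fell in NS cells, 28 fell in knockdown cells, and 34 passed the interaction, all below 0 (median -0.42). The knockdown under DMSO raised 28 of the 39 and lowered 4, against 30.9% and 31% of all genes tested. The median of the 39 was 0.27, against 0.02 for the 50 mitotic genes. Mcm2, a subunit of the replicative helicase, was at 235 and 249, 284 and 294, 348 and 358, and 259 and 249.6 CPM in the 4 groups in the order used above. Here knockdown cells under DMSO were above all other libraries, and its log2 changes with Dox-4OHT were 0.26 ± 0.04 in NS and -0.47 ± 0.04 in knockdown cells. The DNA polymerase subunit Pola1 had the largest interaction of the list (-0.79 ± 0.08, adjusted p = 1.12e-08). Orc1, of the origin recognition complex, was higher in knockdown cells under DMSO by log2 1.17 ± 0.10 and Rrm2, a subunit of ribonucleotide reductase, lower by log2 -1.06 ± 0.04.

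Among the inhibitors, Cdkn1a moved the other way. It had the largest interaction of the 13 G1 cyclins, kinases and inhibitors, of which 4 passed above 0 and 4 below 0. The other inhibitors were mixed: Cdkn2b was above 0 (0.53 ± 0.10, adjusted p = 6.84e-05) and Cdkn2c below 0 (-0.27 ± 0.09, adjusted p = 0.015). Their calls were not followed under the other settings. Cdkn1a stood at 51.7 and 49.3 CPM with DMSO and 30.3 and 31.9 CPM with Dox-4OHT in the NS libraries, and at 42.2 and 36.8 CPM with DMSO and 69.8 and 67.5 CPM with Dox-4OHT in the knockdown libraries. The 4 groups were separate, with p21 (Cdkn1a), the inhibitor of cyclin-dependent kinases, lowest where the mitotic genes were highest and highest where they were lowest. Its log2 change was -0.70 ± 0.07 (adjusted p = 4.47e-09) in NS cells, 0.80 ± 0.06 (adjusted p = 1.26e-10) in knockdown cells and 1.51 ± 0.10 (adjusted p = 2.07e-12) between them. Sfn (14-3-3 sigma), which keeps Cdk1 with cyclin B out of the nucleus after DNA damage, differed by log2 0.74 ± 0.05 (adjusted p = 1.69e-11) and Gadd45a, a growth arrest gene, by log2 0.69 ± 0.19 (adjusted p = 0.00464), a call lost by DESeq2 (adjusted p = 0.0694). The checkpoint kinase Chek1 differed by log2 -0.82 ± 0.10 (adjusted p = 1.33e-07). Of the 10 genes on the G2 checkpoint list, 2 (Sfn and Gadd45a) were above 0 and 5 below 0 among those past the interaction.

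Of 13 G1 cyclins, kinases and inhibitors, 2 rose and 1 fell in NS cells, 8 rose and 3 fell in knockdown cells, and 4 passed the interaction in each direction. In NS cells its 2 rises are fewer than the share of all genes would give. Cyclin D1 (Ccnd1) rose under both shRNAs, by log2 0.68 ± 0.04 in NS and 0.69 ± 0.04 in knockdown cells, with a difference between the responses of 0.01 ± 0.06 (adjusted p = 0.876). Of 18 E2F, pocket protein and MuvB genes, 7 rose and 2 fell in NS cells, 1 rose and 5 fell in knockdown cells, and 7 were below and 1 above 0 past the interaction. The repressor E2f7 was the lowest (-0.60 ± 0.08, adjusted p = 2.07e-06). Tfdp1, a partner of E2F factors, was lower in knockdown cells by log2 -1.16 ± 0.05 under DMSO and -1.47 ± 0.05 under Dox-4OHT. The plot of the lists sets these distributions side by side.

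**Figure D5:**
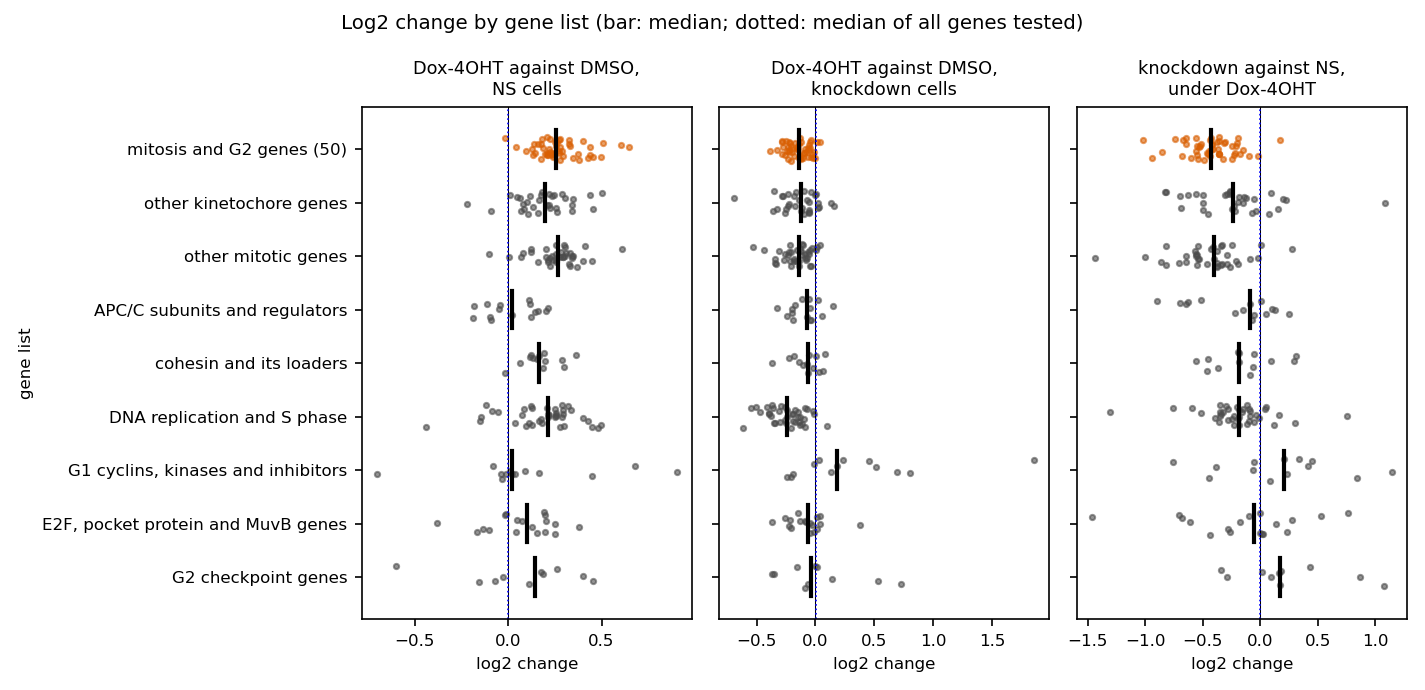
Log2 change of each tested gene (points) of the 50 mitotic genes and the 8 further lists (y axis) in 3 panels (the response to Dox-4OHT of NS cells, that of knockdown cells, and the knockdown effect under Dox-4OHT), with a bar at each list's median. The 50 genes have medians of 0.25, -0.14 and -0.43, and the list of other mitotic genes lies next to them.

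In all, 10 of the 50 share exon bases with another gene in a mouse annotation (Ccna2, Cdc20, Cdc25b, Foxm1, Kif20a, Kif4, Ncapg, Nusap1, Prc1 and Ube2c), most of all Kif20a, with 1271 bases on the opposite strand of Cdc23. How the counting treated strand is not stated in the labels, so reads of such pairs cannot be told apart.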

How the data were processed

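The deposited file holds estimated counts by gene for the 8 libraries, not normalized, which the authors made with TopHat and HOMER on mm9, with DESeq2 also named, per the submitters' processing notes. Versions, strand setting and how reads with several matches were counted are not given in the sources that were used. RNA was extracted with RNeasy columns, made into TruSeq libraries and read on a HiSeq instrument, per the labels. All deposited values were multiples of 0.5, where whole counts had been assumed, so they were rounded. Of 24909 entries, 2 with a repeated symbol were dropped, leaving 24907. A further 24 have dates for symbols and go unnamed in the text. Library totals of 12724325.5 to 16233011 counts set the precision, and the 50 genes had at least 3072 counts each.

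edgeR 4.0.16 in R 4.3.3 (limma 3.58.1) kept 12538 genes by filterByExpr (99.96% of counts), scaled by TMM and fitted 1 mean per group over all 8 libraries, with 4 residual degrees of freedom and a biological coefficient of variation of 3.37%. Quasi-likelihood F tests (robust, two-sided) were made for 5 contrasts, with calls at an adjusted p (Benjamini-Hochberg, all 12538 genes) of 0.05. CPM were computed from the rounded counts with the TMM factors. Log2 changes are given ± a standard error derived from the log2 change and the F value of its test. No part of the comparison tells the agents and Ras apart. DESeq2 1.42.0 and the other alternatives are in the closing section. The replicates of a group differed by more than sampling noise (chi-square per gene 2.35 to 13.3), and each library was counted as 1 sample. This measure includes the ribosomal entry Rn45s. In NS cells under Dox-4OHT (13.3) Rn45s took 0.916% and 2.76% of counts in the 2 replicates. In knockdown cells under DMSO (8.29) it took 0.388% and 1.36%. The measure does not show that the 2 libraries of a group are independent.

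The 50 genes and the 8 further lists (178 entries, 6 under their present symbols) were chosen with earlier results of these data known. Levels in every library are given for Ccnb1, Cdk1, Plk1, Foxm1, Mki67 and Top2a and for up to 4 genes with the largest rise and 4 with the largest fall past the test in each contrast whose libraries did not overlap (for the interaction, past the test). From each further list, up to 2 per direction and contrast could be named, and those named were picked from these. Promoters are RefSeq's, on GRCm38.p6, used as sequence only, since the counts are on mm9. Transcript lengths are those in the deposited table, and overlaps of exons were taken from GENCODE M21, by name.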

Additional observations from a re-analysis of the deposited data

Results flagged for a closer look

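The response to Dox-4OHT differed between knockdown and NS cells, by the interaction in edgeR's model, in 46 of the 50 mitotic genes. It also differed in 19 genes of the further lists that could be named by the rule for named genes and were looked at singly. Cdkn2b and Cdkn2c, given above beside Cdkn1a, differed as well and are not repeated here. Every value below is the log2 response of knockdown cells minus that of NS cells, and a negative value says that the response was lower in knockdown cells. Among the cyclins, Cdk1 and the phosphatases the values were -0.55 (Ccna2), -0.83 (Ccnb1), -0.44 (Ccnb2), -0.31 (Cdk1), -0.18 (Cdc25b) and -0.49 (Cdc25c). For the transcription factors they were -0.38 (Foxm1) and -0.48 (Mybl2). The Polo and Aurora A kinases and their partners differed by -0.36 (Plk1), -0.38 (Aurka), -0.30 (Tpx2), -0.42 (Hmmr) and -0.18 (Nusap1). In the chromosomal passenger complex the differences were -0.26 (Aurkb), -0.37 (Birc5), -0.41 (Incenp) and -0.43 (Cdca8). The spindle checkpoint genes had -0.33 (Bub1), -0.43 (Bub1b), -0.23 (Bub3), -0.42 (Mad2l1) and -0.37 (Ttk). The centromere and kinetochore genes had -0.57 (Cenpa), -0.89 (Cenpe), -0.58 (Cenpf), -0.42 (Nuf2) and -0.36 (Spc24). For anaphase the values were -0.52 (Cdc20), -0.47 (Ube2c) and -0.35 (Espl1). The kinesins differed by -0.39 (Kif11), -0.43 (Kif20a), -0.35 (Kif20b), -0.55 (Kif23), -0.30 (Kif2c), -0.41 (Kif4) and -0.47 (Kif22). Those of cytokinesis were -0.50 (Ect2), -0.29 (Anln), -0.34 (Prc1) and -0.42 (Racgap1). In the genes of chromosome structure the differences were -0.40 (Top2a), -0.59 (Ncapg), -0.36 (Ncaph), -0.55 (Smc2) and -0.50 (Smc4).

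Of the genes on other lists, the differences were 1.51 (Cdkn1a), 0.74 (Sfn), 0.69 (Gadd45a), -0.82 (Chek1), -0.73 (Mcm2), -0.79 (Pola1), -0.41 (Orc1), -0.25 (Rrm2), -0.73 (Trip13), -0.69 (Psrc1), -0.67 (Pds5b), -0.54 (Fbxo5), -0.60 (E2f7), 0.34 (Anapc2), -0.60 (Sgo2a), -0.68 (Ska1), -0.64 (Depdc1b), -0.49 (Kif18b) and -0.31 (Tfdp1). Of these, the calls of Gadd45a and Orc1 were lost by DESeq2 (adjusted p = 0.0694 and 0.168), and that of Orc1 was also lost without NS DMSO replicate 1 (adjusted p = 0.156), either NS Dox-4OHT library (adjusted p = 0.0577 and 0.0781), knockdown DMSO replicate 2 (adjusted p = 0.195) or knockdown Dox-4OHT replicate 2 (adjusted p = 0.101).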

How the results depend on the processing

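The 5 comparisons of the 50 genes were recomputed with DESeq2, with other scalings, without the filter on low counts, with only the groups compared (not for the interaction, which needs all 4), with the replicate number as a block, without the ribosomal entry Rn45s, with an offset for transcript length (chosen after seeing the data) and without each library. No called value of a single gene changed sign. Calls kept under all these settings numbered 37 of 45 (NS cells), 18 of 29 (knockdown cells), 20 of 36 (knockdown effect under DMSO), 44 of 46 (under Dox-4OHT) and 39 of 46 (interaction).

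DESeq2 called fewer genes over the whole table, 3265 against 5281 in NS cells, 2628 against 4531 in knockdown cells and 2828 against 4791 in the interaction. Of the 50 it called 19 against 29 lower in knockdown cells, 12 against 19 lower with the knockdown under DMSO, and 0 against 1 higher under Dox-4OHT. Scaling by library totals without TMM moved the medians of the 50 to -0.18 (knockdown cells), -0.47 (knockdown effect under Dox-4OHT) and -0.47 (interaction). With it, the share of higher among all genes called went from 54.0% to 43.9% in knockdown cells and from 52.8% to 40.9% in the interaction. With upper-quartile scaling the median knockdown effect under Dox-4OHT was -0.46, and with the length offset the median knockdown effect under DMSO turned to -0.0068. The cause of these shifts was not tested.

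Leaving out each library in turn gave 38 to 45 genes higher and a median of 0.23 to 0.29 in NS cells, and 23 to 30 lower and a median of -0.16 to -0.13 in knockdown cells. The knockdown effect under DMSO gave 12 to 17 higher, 13 to 19 lower and a median of -0.022 to 0.042, below 0 without NS DMSO replicate 1 (-0.0034) and knockdown DMSO replicate 2 (-0.022). Under Dox-4OHT it gave 45 to 46 lower, 0 to 1 higher and a median of -0.43 to -0.39. For the interaction 42 to 46 were lower, with a median of -0.43 to -0.39.

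The replicate numbers are shared between groups in the labels. Deviations of libraries with the same number correlated between -0.036 and 0.057 over all genes tested. Genes with few counts weigh as much as others in this measure, so it cannot settle if the libraries were paired. With the replicate block, 43 were higher in NS cells, 29 lower in knockdown cells, 16 higher and 19 lower with the knockdown under DMSO, 1 higher and 45 lower under Dox-4OHT, and 45 lower in the interaction.

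With 2 libraries a group, 4 residual degrees of freedom limit what can be called, and the lowest total of any of the 50 genes was 3072 counts. A CHR was in the promoter of 78.0% of the 41 genes in a window from 150 bases before the start too, and TTTGAA alone was in that of 73.2%.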

Other observations

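The spacing of CCAAT boxes was looked at after the promoters had been seen. At least 2 CCAAT boxes were in the window of 19 of the 41 mitotic genes (46.3%), against 13.3% of all genes in RefSeq's table. In Aurka, Ccnb1, Ccnb2, Cdca8, Cdk1, Hmmr, Spc25 and Ube2c a pair of boxes began 30 to 36 bases apart, which is 19.5% of the 41 genes against 2.11% of all genes. Of the genes with at least 2 boxes, 42.1% of the mitotic genes and 15.9% of all genes had a pair at this distance. The limits of 30 to 36 bases were set after these positions had been seen, so the higher shares in the mitotic genes are no test of the spacing.

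Genes with and without the CHR letters in these windows had much the same medians. The median log2 change in NS cells was 0.24 in the 32 genes with a CHR and 0.21 in the 9 without, and the median interaction was -0.41 and -0.42.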
